A study of Mus musculus with 25 samples.

Results

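The genes described here are the matrix proteases and their inhibitors, read in pituitary tissue of shRb mice by bulk RNA-seq. Members were chosen by gene symbol alone, with no measured value used: the matrix metalloproteinases (Mmp), the Adam and Adamts proteases with the Adamtsl proteins, the tissue inhibitors of metalloproteinases (Timp), the cathepsins (Cts) and the serpins of groups e, f and h. They came to 72 of the 15768 genes listed in either table. Of these, 71 were listed in the long-term experiment and 63 in the short-term experiment, with 62 in both. By family there were 15 Mmp, 15 Adam, 16 Adamts, 5 Adamtsl, 3 Timp, 13 Cts and 5 Serpin genes.

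The shRb mouse carries an shRNA against Rb1, linked to GFP, at the Col1a1 locus, and the transactivator rtTA under the broadly active Rosa26 promoter. Doxycycline (dox) in the drinking water of adult mice switches the shRNA on and RB down, and removal of dox lets RB return. The dox water also held sucrose, and the water after dox removal did not. The return of RB and the end of dox and sucrose therefore cannot be told apart in these groups. The mice were treated as young adults. A single shRNA sequence was used, in a line founded from 1 embryonic stem cell clone, and every cell type of the pituitary can carry the knock-down. Every mouse of every group carried both transgenes and had received dox for weeks, so that no untreated pituitary stands in these comparisons. The groups of the long-term experiment were 6w+dox (6 weeks on dox, 3 females), 12w+dox (12 weeks on dox, 2 females and 2 males) and 12w-res (dox for 6 weeks, then none for 6 weeks, 3 females and 2 males). The groups of the short-term experiment, in mice with advanced tumors, were 16w +dox (16 weeks on dox, 3 males) and the same treatment followed by 1 day (1d -dox, 4 females), 3 days (3d -dox, 3 males) or 5 days (5d -dox, 3 females) off dox. The labels name the strain of every mouse as shRB, the transgenic line itself, and give neither a background strain nor an exact age.

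Matrix metalloproteinases and Adamts enzymes are secreted or membrane-bound zinc proteases that cut collagens, proteoglycans and other parts of the extracellular matrix, and Adam proteins shed the outer parts of growth factors, receptors and adhesion molecules from the cell surface. Timp proteins block the metalloproteinases, and many serpins block serine proteases. Cathepsins work mainly in lysosomes, where they degrade proteins, and some are also released. In the pituitary the loose stroma, the vessels and the macrophages are known sources of many of these proteins, while the endocrine cells carry lysosomal cathepsins of their own.

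Promoter sequences of 47 of the 72 members were found in the RefSeq promoter table (GRCm38.p6). The 5 short motifs were searched on both strands of the 250 bases before each start: AP-1 (TGANTCA), E2F (TTTCGCG or TTTGGCG), the E-box CACGTG, the TATA box TATAAA and Sp1 (GGGCGG). An AP-1 match stood in 4 of these 47 members (8.51%), against 5.81% of the 11749 promoters of genes that the expression tables list and 7.82% of all 27025 promoters in the table. The Sp1 match stood in 30 of 47 (63.8%), against 61.6% of listed genes and 35.4% of all genes. The E-box stood in 14.9% of members, 9.52% of listed genes and 6.86% of all genes. The TATA box stood in 10.6%, 8.24% and 14.3%, and E2F in 2.13%, 3.77% and 2.22%, in the same order. Of the 13 promoters of members that were higher in 12w-res than in 12w+dox, 9 held Sp1 and 0 held AP-1 or E2F. Of the AP-1 matches, 3 belong to Mmp13, Mmp12 and Mmp3, which follow each other on chromosome 9, and these are shown because Mmp12 and Mmp13 rose together on prolonged dox. The windows shown are chr9:7272264-7272513 (plus strand), chr9:7347124-7347373 (plus strand), the second of 2 starts of this gene, and chr9:7445572-7445821 (plus strand). The window of the first Mmp12 start, chr9:7344147-7344396, held no AP-1 match. The other member with an AP-1 match was Adam19, which also rose on prolonged dox. A link of the motif to these changes was not tested. Capitals mark the AP-1 match and, where present, the TATA box.
Mmp13: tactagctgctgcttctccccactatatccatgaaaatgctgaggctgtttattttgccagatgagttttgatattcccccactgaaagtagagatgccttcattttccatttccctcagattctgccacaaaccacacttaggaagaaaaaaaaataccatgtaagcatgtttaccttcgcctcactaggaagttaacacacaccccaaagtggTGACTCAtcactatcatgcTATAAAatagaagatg
Mmp12: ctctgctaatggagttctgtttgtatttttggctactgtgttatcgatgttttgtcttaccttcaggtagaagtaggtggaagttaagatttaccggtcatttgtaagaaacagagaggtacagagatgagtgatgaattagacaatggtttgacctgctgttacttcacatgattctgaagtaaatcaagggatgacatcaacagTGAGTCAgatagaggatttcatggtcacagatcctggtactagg
Mmp3: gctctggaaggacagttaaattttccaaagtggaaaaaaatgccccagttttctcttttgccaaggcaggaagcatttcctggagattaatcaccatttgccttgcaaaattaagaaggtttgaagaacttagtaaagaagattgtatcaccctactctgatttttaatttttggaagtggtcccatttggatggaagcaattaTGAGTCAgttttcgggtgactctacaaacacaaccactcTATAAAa
The AP-1 match began 35 bases before the start in Mmp13, 44 before the second start in Mmp12 and 46 before the start in Mmp3.

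The promoters of Adamts2, the member with the largest log2 fold change in 12w-res against 6w+dox on the log2(FPM + 0.5) scale, of its relative Adamts3 and of Timp1 are shown for contrast, with Sp1 matches in capitals. They lie at chr11:50601835-50602084 (plus strand), chr5:89883335-89883584 (minus strand) and chrX:20869916-20870165 (plus strand).
Adamts2: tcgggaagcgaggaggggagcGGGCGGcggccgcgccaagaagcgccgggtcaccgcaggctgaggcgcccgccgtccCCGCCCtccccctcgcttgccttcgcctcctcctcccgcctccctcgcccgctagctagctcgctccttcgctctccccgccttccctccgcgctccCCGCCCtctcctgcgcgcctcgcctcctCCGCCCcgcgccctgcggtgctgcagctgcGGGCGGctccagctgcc
Adamts3: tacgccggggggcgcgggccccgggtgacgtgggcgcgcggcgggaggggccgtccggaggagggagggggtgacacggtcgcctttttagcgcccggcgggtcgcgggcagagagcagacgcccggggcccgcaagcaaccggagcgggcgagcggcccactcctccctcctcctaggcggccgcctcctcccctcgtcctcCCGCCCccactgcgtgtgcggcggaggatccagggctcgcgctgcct
Timp1: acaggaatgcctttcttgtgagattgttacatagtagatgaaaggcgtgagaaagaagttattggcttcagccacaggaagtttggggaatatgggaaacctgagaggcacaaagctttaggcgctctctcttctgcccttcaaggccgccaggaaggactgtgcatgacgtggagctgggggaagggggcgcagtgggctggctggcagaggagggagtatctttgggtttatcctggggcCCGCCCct
Adamts2 held 5 Sp1 matches in its window, and Adamts3 and Timp1 held 1 each. None of them held an AP-1 match, and Adamts2 also rose on prolonged dox. A match is a description of the letters only, and binding was not measured.

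Reads on genes ranged from 19066053 to 28968476 per mouse in the long-term experiment and from 9573101 to 13036900 in the short-term experiment. Values are given as FPM, the reads of a gene scaled to a common library size with the DESeq2 size factors of the authors. Pomc, the hormone precursor of melanotrophs and corticotrophs, took 12.9% to 43.2% of the gene reads of a long-term mouse and 4.96% to 17.9% of a short-term mouse, which places endocrine pituitary cells in every library. Rb1 was at 3.16 ± 1.70 FPM in 6w+dox (SD, n = 3), 3.21 ± 0.700 FPM in 12w+dox (SD, n = 4) and 18.2 ± 1.66 FPM in 12w-res (SD, n = 5). In the short-term groups Rb1 was at 4.19 ± 0.709 FPM in 16w +dox and 5.12 ± 0.239 FPM in 5d -dox (SD, n = 3 each), while GFP went from 1246 ± 192 to 11.7 ± 3.08 FPM. The 2 experiments were prepared differently (polyA enrichment for the long-term, rRNA depletion for the short-term libraries) and scaled apart, so levels were not compared between them.

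Per kilobase of the longest transcript, the members spanned a wide range of levels in the long-term mice. Ctsd, an aspartic cathepsin, led with a mean over the 3 groups of 177 FPM per kb, followed by the cysteine cathepsin Ctsb at 165 and the inhibitor Timp2 at 108. Next came Ctsz at 48.7, Ctsl at 45.3 and Serpinh1, the collagen chaperone HSP47, at 38.6. The highest protease outside the cathepsins was the sheddase Adam10 at 21.7, just above the membrane-type protease Mmp14 at 16.8. Ctsd and Ctsb traded places between groups: in FPM per kb the 12w-res and 12w+dox means were higher for Ctsd (227 and 156), than for Ctsb (200.1 and 137), whereas the 6w+dox mean was 148 for Ctsd and 159 for Ctsb. This order rests on the lengths used, and which transcript was expressed was not tested. In FPM without the length, Ctsb stood above Ctsd in 12w-res (949 against 483), 12w+dox (648 against 333) and 6w+dox (754 against 315). Ctsl likewise stood above Ctsz in every group. Lysosomal cathepsins and Timp2 thus made up the upper end, and most secreted metalloproteinases lay far below it.

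**Figure D1:**
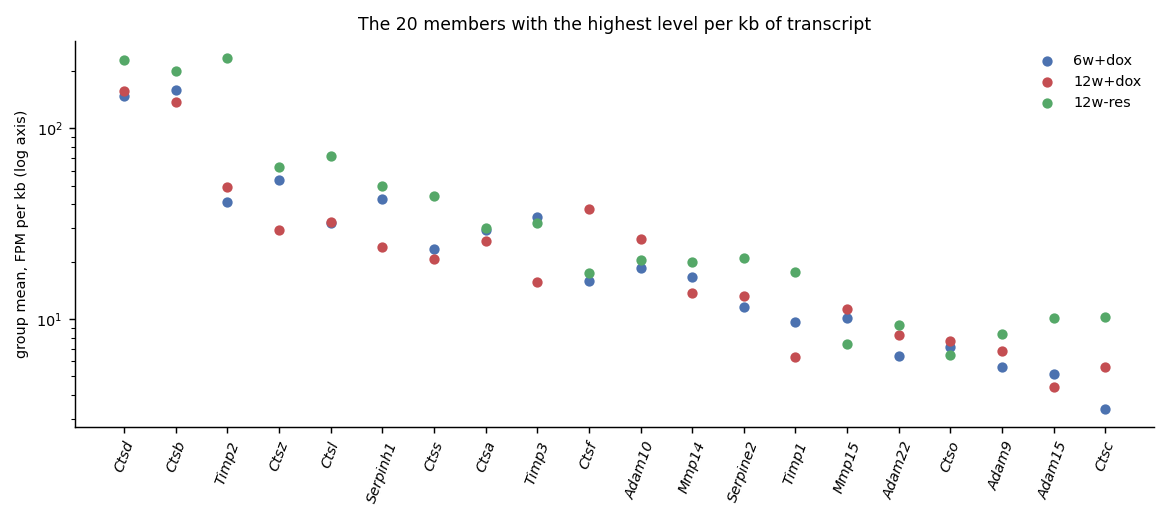
Group means in FPM per kilobase of the longest transcript (log axis) for the 20 members with the highest level in the long-term experiment, ordered by the mean over the 3 groups, with 1 point per group. The 12w-res points stand well above the other groups for Timp2, and Ctsf stands highest in 12w+dox.

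The first question was how the members changed while knock-down continued from 6 to 12 weeks. Here a call needs both an adjusted p below 0.05, from a limma fit across all genes of the experiment, and a log2 fold change beyond 1 in either direction. In 12w+dox against 6w+dox, 7 of 71 members were higher and 2 were lower, where the percent called over all 15315 genes was 7.2 (3.15 higher and 4.04 lower). The members higher at 12 weeks were Mmp12, Mmp9, Adamts2, Adam19, Mmp13, Adam12 and Ctsf, and those lower were Adam23 and Timp3. The groups did not overlap for 12 members that were higher and 7 that were lower, where the shares over all genes were 12.9% and 12.4%. The median log2 fold change of the members was 0.12, and that of all genes was -0.0063.

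The second question was what differed after 6 weeks without dox. The paper reports that RB took weeks to return in late-stage tumors. The time of its return within these 6 weeks was not measured. In 12w-res against 12w+dox, 21 of 71 members were higher and 2 were lower, where the percent called over all genes was 11.3 (6.24 higher and 5.04 lower). The median log2 fold change was 0.52 for the members, beside -0.0040 for all genes. The groups did not overlap for 24 members that were higher and 4 that were lower, where the shares over all genes were 17.1% and 17.4%. All 3 Timp genes and 3 of 5 Serpin genes were among the higher ones, with 7 of 21 Adamts and Adamtsl, 4 of 13 Cts, 2 of 15 Mmp and 2 of 14 Adam genes. These counts depend on scaling: with totals of the reads in place of size factors the median of all genes moved to -0.61, and 7 members were then higher and 11 lower, beside 1.59% and 22% of all genes, with a median of -0.025 for the members. The members lower in 12w-res were Ctsf and Adam5.

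The last long-term comparison set 12w-res against 6w+dox, the state from which dox was removed. Here 23 of 71 members were higher and 2 were lower, where the percent called over all genes was 11.6 (5.81 higher and 5.82 lower), and the median was 0.48 for members and -0.021 for all genes. The groups did not overlap for 31 members that were higher and 8 that were lower, where the shares over all genes were 16.9% and 15.9%. Among the Timp, metalloproteinase and cathepsin families, 1 of 3 Timp genes (Timp2), 9 of 21 Adamts and Adamtsl, 5 of 15 Mmp, 4 of 13 Cts and 3 of 14 Adam genes were higher. The members lower in 12w-res were Adam5 and Adam1a. These 3 comparisons share their groups and are not independent of each other, and the 6w+dox mice were all female. With female mice only, 69 members were tested. In 12w+dox against 6w+dox 5 were then higher and 3 lower, beside 1.86% and 2.08% of all genes. In 12w-res against 6w+dox the counts were 27 and 1, beside 6.58% and 6.44%. In 12w-res against 12w+dox, whose full groups both held both sexes, they were 21 and 2, beside 5.09% and 4.21%. The interaction of sex with this contrast passed in 0 of 71 members (limma), beside 13 of 15315 genes (0.0849%), and stood at an unadjusted p under 0.05 in 8 members, beside 654 genes (4.27%).

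**Figure D2:**
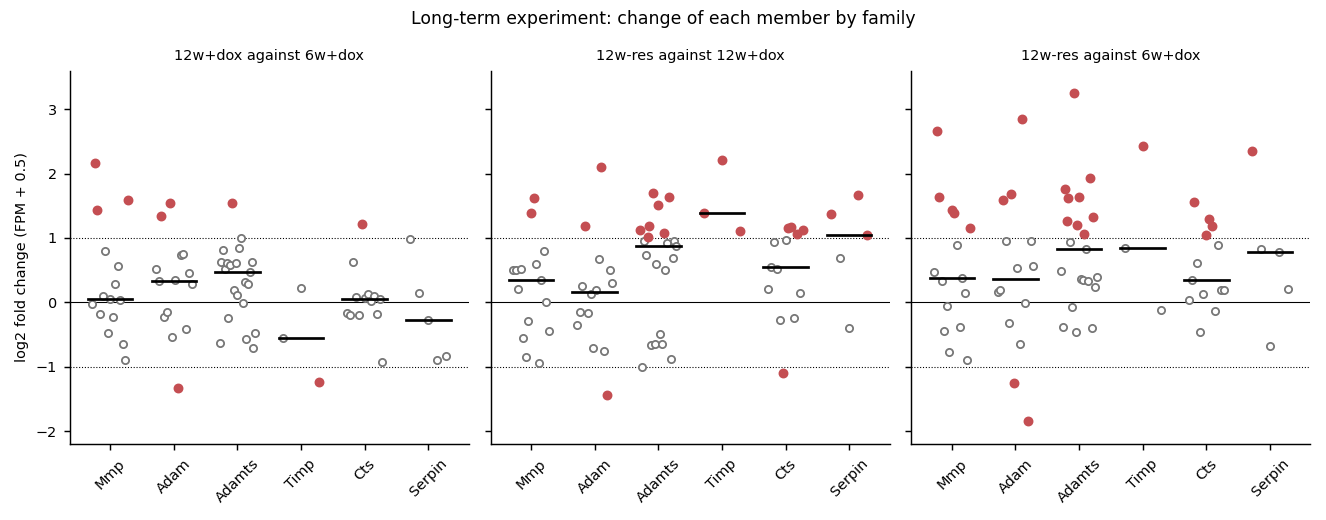
Log2 fold change of each of the 71 members on the log2(FPM + 0.5) scale, by family, in the 3 long-term comparisons; Adamts includes Adamtsl. Filled points passed the adjusted p and the fold threshold, open points did not, black bars are family medians and dotted lines mark a log2 fold change of 1 in either direction. In 12w-res against 12w+dox the 3 Timp points are all filled and above the line, and in 12w+dox against 6w+dox 1 Timp point is filled below it.

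Markers of other cell types moved with these differences, and their part in the members' changes was not tested. From 6w+dox to 12w+dox 4 of 6 fibroblast markers and 2 of 6 endothelial markers fell, and in 12w-res against 12w+dox 6 of 6 fibroblast, 5 of 6 endothelial, 6 of 6 pericyte and smooth muscle, and 2 of 10 macrophage markers were higher. The summed fibroblast markers ranged from 246 to 278 FPM in 6w+dox, from 69.6 to 255 in 12w+dox and from 366 to 758 in 12w-res. The pericyte and smooth muscle sum ranged from 132 to 173, from 112 to 269 and from 454 to 552 FPM, and the endothelial sum from 75.0 to 105, from 36.8 to 73.0 and from 130 to 143 FPM. Of the 4 lists, none had a marker at or under 3 reads in every library of a long-term group. Against 6w+dox, 1 of 6 fibroblast, 0 of 6 endothelial, 3 of 6 pericyte and 2 of 10 macrophage markers were higher in 12w-res. From 6w+dox to 12w+dox, 3 of 5 markers of other hormone cells (Gh, Prl and Tshb), 3 of 4 of the neural lobe (Avp, Oxt and Rax) and 2 of 4 of folliculostellate and stem cells (Aldh1a2 and Cyp2f2) fell, and in 12w-res against 12w+dox Gh, Prl and Aldh1a2 were higher. In 12w-res against 6w+dox, 2 of 5, 3 of 4 and 1 of 4 markers of these lists were lower, and 0 were higher. Endocrine markers moved as well. The summed melanotroph markers, of which Pomc is the bulk, ranged from 109409 to 381126 FPM in 6w+dox, from 95959 to 198225 in 12w+dox and from 458509 to 580774 in 12w-res, so that every restored mouse lay above every dox-treated mouse. Pomc took 13.6% to 32.2%, 12.9% to 23.0% and 39.1% to 43.2% of the gene reads in these groups. Of the 4 melanotroph markers, Pcsk2 was higher in 12w-res than in either dox group and Pax7 was higher in 12w+dox than in 6w+dox. Pomc did not pass in limma in 12w-res against 12w+dox (log2 1.86, SE 3.08, adjusted p = 0.663). This SE draws on a variance trend over all genes and is far wider than the spread between these mice. The test therefore cannot decide on Pomc, although the mice of the 2 groups did not overlap in the sum. In 12w+dox, replicates 1 and 4 had the higher fibroblast sums (255 and 219 FPM) and replicates 2 and 3 the lower ones (101 and 69.6 FPM). Timp3 and Adamts2, named here after their values were seen, were also higher in replicates 1 and 4. Serpinf1 and Timp1 did not follow this order, with replicate 3 above replicate 1 in both. In bulk tissue, fewer cells of a type and less RNA per cell cannot be told apart.

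**Figure D3:**
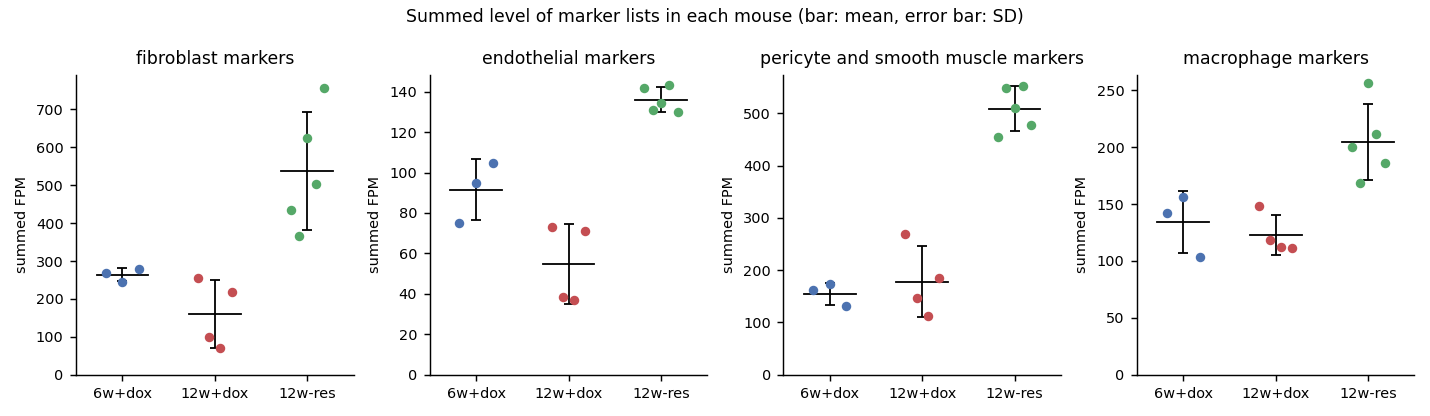
Summed FPM of 4 marker lists in each long-term mouse (1 point per mouse, line at the mean, error bar of 1 SD; the axis starts at 0). The 12w-res mice lie above both dox groups in the fibroblast, endothelial, pericyte and smooth muscle, and macrophage lists, and the 12w+dox mice differ widely in the fibroblast list.

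Among the inhibitors, Timp2, which blocks metalloproteinases and also takes part in the activation of pro-Mmp2, changed most. Timp2 stood at 164, 156 and 136 FPM in the 6w+dox mice, at 241, 194, 119 and 175 FPM in the 12w+dox mice, and at 524, 701, 757, 1263 and 1067 FPM in the 12w-res mice. The restored mice all lay above every dox-treated mouse, and the dox groups overlapped. The difference of 12w-res from 12w+dox was 4.64-fold (log2 2.21, SE 0.24, adjusted p = 1.02e-05), and from 6w+dox 5.40-fold (log2 2.43, SE 0.26, adjusted p = 1.11e-05). Between 12w+dox and 6w+dox the log2 difference was 0.22, which did not pass (adjusted p = 0.594).

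Timp3, the matrix-bound inhibitor, had another course. It was at 159, 179 and 147 FPM in 6w+dox, at 108, 41.3, 52.0 and 94.1 FPM in 12w+dox, and at 161, 117, 173, 134 and 162 FPM in 12w-res. The 12w+dox mice lay below both other groups without overlap. Timp3 was 2.35-fold lower in 12w+dox than in 6w+dox (log2 -1.23, SE 0.27, adjusted p = 0.00638) and 2.16-fold higher in 12w-res than in 12w+dox (adjusted p = 0.0022), whereas 12w-res and 6w+dox differed by -0.12 (adjusted p = 0.746). Without 12w+dox replicate 2 neither call passed the fold threshold, at -0.99 and 0.87, and without replicate 3 the second stood at 0.98. Some 21.3% of the exon bases of Timp3 are shared with Syn3 on the opposite strand, and the counting of strand is not stated.

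Timp1, an inhibitor often induced in tissue remodelling, was at 8.38, 11.05 and 6.13 FPM in 6w+dox, at 6.00, 4.20, 6.53 and 5.56 FPM in 12w+dox, and at 20.1, 9.67, 16.1, 16.9 and 15.4 FPM in 12w-res. Its restored mice exceeded all 12w+dox mice, and 1 of them lay within the 6w+dox range. Timp1 was higher in 12w-res than in 12w+dox (log2 1.39, SE 0.22, adjusted p = 0.000247), and the difference from 6w+dox was 0.84 (adjusted p = 0.0142), under the fold threshold. Timp1 sits inside Syn1 on the opposite strand, with 0% of its exon bases shared.

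**Figure D4:**
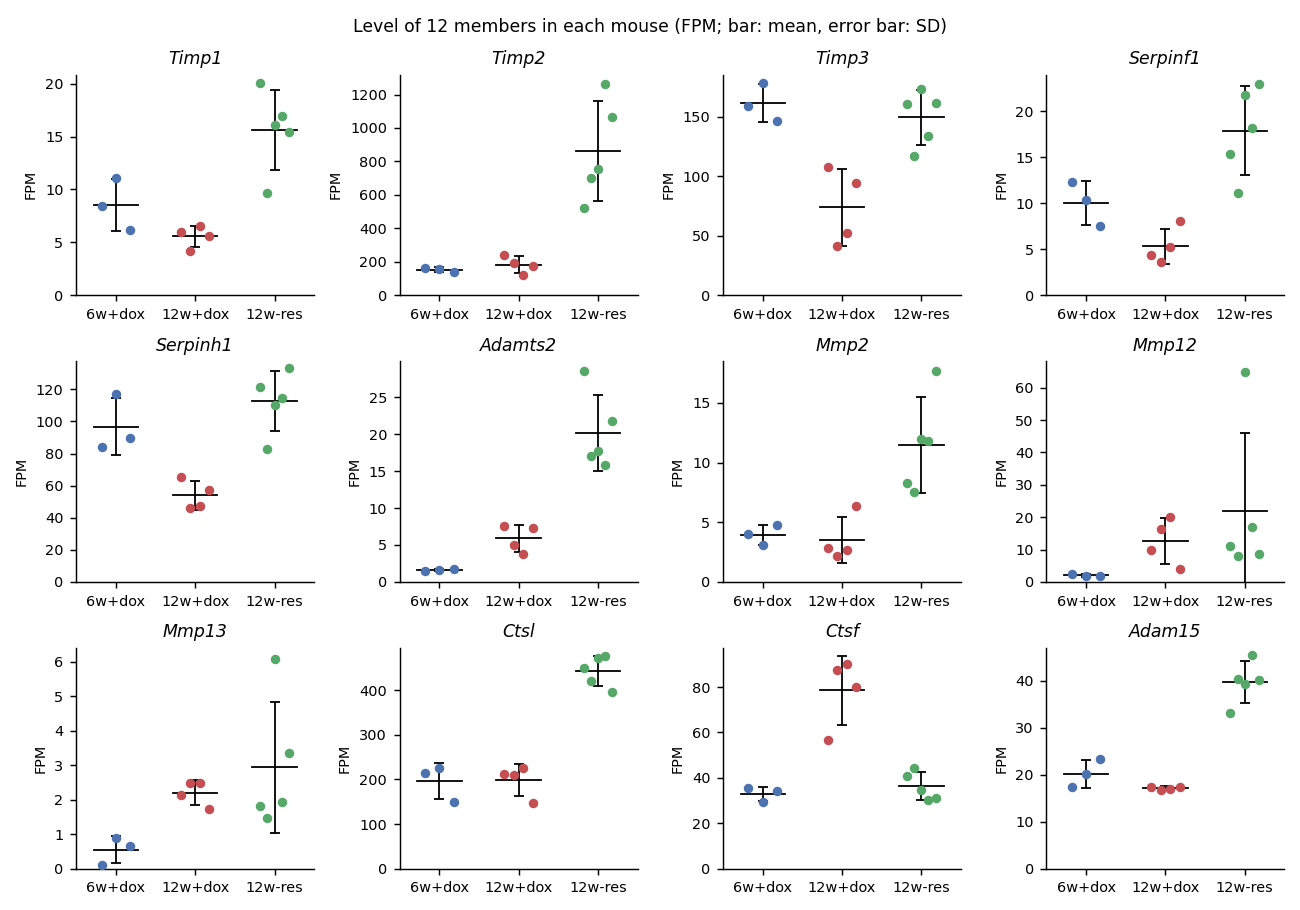
FPM of 12 members in each long-term mouse (1 point per mouse, line at the mean, error bar of 1 SD; each axis starts at 0 and ends the error bar of Mmp12 there). Timp2, Adam15 and Ctsl are high in 12w-res alone, Timp3 and Serpinh1 are lowest in 12w+dox, Ctsf is highest in 12w+dox, and Mmp12 reaches 64.8 FPM in 1 restored mouse.

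Serpinf1, the antiangiogenic factor PEDF, was at 12.3, 10.4 and 7.49 FPM in 6w+dox, at 4.33, 3.64, 5.24 and 8.01 FPM in 12w+dox, and at 15.4, 11.1, 21.8, 18.2 and 23.0 FPM in 12w-res. All restored mice lay above all 12w+dox mice (log2 1.67, SE 0.25, adjusted p = 0.000147). Serpinh1, needed for the folding of collagens, had the same order of groups: 84.0, 117 and 89.4 FPM in 6w+dox, 65.3, 46.4, 47.1 and 57.3 FPM in 12w+dox, and 122, 82.9, 110 and 115 FPM with 133 FPM in the 5th mouse of 12w-res. The 12w+dox mice were below all others. Serpinh1 was higher in 12w-res than in 12w+dox at a log2 fold change of 1.05 (SE 0.15, adjusted p = 0.000126), a value that left the threshold without 12w+dox replicate 2 (0.98), 12w+dox replicate 3 (0.99) or 12w-res replicate 5 (0.99). Serpine2, an inhibitor of thrombin and plasminogen activators, overlapped between these groups, at 44.7 ± 16.6 FPM in 12w+dox (SD, n = 4) and 70.6 ± 20.2 FPM in 12w-res (SD, n = 5), a log2 difference of 0.68 (adjusted p = 0.0364).

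Among the secreted metalloproteinases, the genes of the chromosome 9 cluster and the gelatinases took different courses. Mmp12, the macrophage elastase, was at 2.503, 1.74 and 1.90 FPM in 6w+dox, at 9.77, 16.4, 20.2 and 4.11 FPM in 12w+dox, and at 11.1, 8.08, 64.8, 17.004 and 8.68 FPM in 12w-res. The 6w+dox mice were below all others, and the later groups overlapped. Mmp12 was 4.48-fold higher in 12w+dox than in 6w+dox (log2 2.16, SE 0.61, adjusted p = 0.0222), and this call was lost without 12w+dox replicate 2, 12w+dox replicate 3 or 6w+dox replicate 2, at log2 values of 1.97, 1.88 and 2.08. The summed macrophage markers were 104 to 156 FPM in 6w+dox and 111 to 148 FPM in 12w+dox, and 0 of 10 were called in this comparison.

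Mmp13, an interstitial collagenase, was at 0.116, 0.891 and 0.662 FPM in 6w+dox, at 2.13, 2.48, 2.49 and 1.73 FPM in 12w+dox, and at 1.82, 1.48, 6.10, 1.95 and 3.37 FPM in 12w-res. As with Mmp12, the 6w+dox mice were lowest and the later groups overlapped. The log2 rise from 6w+dox was 1.43 (SE 0.38, adjusted p = 0.0177) in 12w+dox, a call lost without 6w+dox replicate 1 (1.08), and 1.63 (adjusted p = 0.0037) in 12w-res. Their neighbour Mmp3, a stromelysin named for its position after its values were seen, had log2 values of -0.65 and 0.15 in the same comparisons (adjusted p = 0.445 and 0.861). Restored replicate 3 was the highest mouse for Mmp12, Mmp13 and Mmp3, at 6.37 FPM for the last against 0.413 to 0.995 FPM in the other restored mice.

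Mmp2, the gelatinase of fibroblasts, was at 4.02, 3.07 and 4.76 FPM in 6w+dox, at 2.86, 2.19, 2.68 and 6.34 FPM in 12w+dox, and at 8.32, 7.56, 12.0, 11.8 and 17.7 FPM in 12w-res. Every restored mouse lay above every dox-treated mouse. It was higher than in 12w+dox by 1.62 on the log2 scale (SE 0.29, adjusted p = 0.000657) and than in 6w+dox by 1.38 (adjusted p = 0.00385). Mmp9, the other gelatinase, was at 0.338 ± 0.353 FPM in 6w+dox (SD, n = 3), 1.99 ± 0.870 FPM in 12w+dox (SD, n = 4) and 1.28 ± 0.350 FPM in 12w-res (SD, n = 5). It rose in 12w+dox against 6w+dox (log2 1.59, adjusted p = 0.0054) and differed by -0.45 between 12w-res and 12w+dox (adjusted p = 0.248). Its call in 12w-res against 6w+dox (1.15, adjusted p = 0.0133) was lost without 6w+dox replicate 1, a library with 0 reads of Mmp9, at 0.82.

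Mmp19, another secreted metalloproteinase, was higher in 12w-res than in 12w+dox at 2.39 ± 0.696 FPM (SD, n = 5) against 0.606 ± 0.288 FPM (SD, n = 4), a log2 fold change of 1.39 (adjusted p = 0.000353); 22.3% of its exon bases are shared with Tmem198b on the opposite strand. None of the 5 membrane-type enzymes was called in any of the 3 comparisons, where 7.2% to 11.6% of all genes were called. In 12w-res against 12w+dox, Mmp14, which activates pro-Mmp2 at the cell surface, had a log2 difference of 0.52 (adjusted p = 0.0512), with no overlap between 40.0 to 47.8 FPM in 12w+dox and 54.2 to 79.0 FPM in 12w-res. Of the others, 3 that were singled out after their values were seen had adjusted p-values under 0.05 in the opposite direction: Mmp15 at -0.55 (adjusted p = 0.0288), Mmp16 at -0.85 (adjusted p = 0.00192) and Mmp24 at -0.94 (adjusted p = 9.93e-05).

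The procollagen N-propeptidases Adamts2, Adamts3 and Adamts14, which trim fibrillar procollagens before they assemble, were all higher in 12w-res than in 6w+dox. Adamts2 was at 1.46, 1.65 and 1.74 FPM in 6w+dox, at 7.50, 4.95, 3.82 and 7.23 FPM in 12w+dox, and at 28.5, 17.01, 17.7, 15.8 and 21.7 FPM in 12w-res. The 3 groups stood in steps with no overlap. It rose 2.93-fold in 12w+dox against 6w+dox (log2 1.55, SE 0.25, adjusted p = 0.00109), stood 3.26-fold higher in 12w-res than in 12w+dox (log2 1.71, SE 0.22, adjusted p = 4.35e-05) and 9.55-fold higher than in 6w+dox (log2 3.26, SE 0.24, adjusted p = 2.38e-07), the largest log2 value of any member there on the log2(FPM + 0.5) scale, which understates low genes. Adamts3 was at 3.82 ± 0.635, 6.14 ± 1.21 and 9.65 ± 2.40 FPM (SD, n = 3, 4 and 5), with a log2 difference of 1.20 from 6w+dox to 12w-res (adjusted p = 0.00145). Adamts3 and Adamts14 are named after their values were seen. Adamts14 was low throughout: 2 reads in all of the 6w+dox libraries stood against 81 in 12w-res, a ratio of scaled levels of 27.1 with an exact 95% counting interval of 7.28 to 228.

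Of the 7 Adamts genes known to cut aggrecan and versican, 3 were higher in 12w-res than in 12w+dox and 0 were lower, beside 6.24% and 5.04% of all genes. Adamts4 was at 0.978 ± 0.634 FPM in 12w+dox (SD, n = 4) and 3.71 ± 1.44 FPM in 12w-res (SD, n = 5), with no overlap and a log2 fold change of 1.51 (adjusted p = 0.00199). Adamts1 was at 4.89 ± 1.64 and 10.9 ± 1.99 FPM, also without overlap, at a log2 fold change of 1.12 (adjusted p = 0.0015) that became 0.89 without 12w+dox replicate 3. Adamts15 had 1.01 (adjusted p = 0.0102), and it left the threshold without 12w+dox replicate 2 (0.82), 12w+dox replicate 3 (0.88), 12w-res replicate 3 (0.93) or 12w-res replicate 4 (0.98).

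Other Adamts and Adamtsl genes also stood higher in 12w-res. Adamts17 was at 2.62 ± 0.265 FPM in 12w+dox (SD, n = 4) and 6.74 ± 1.61 FPM in 12w-res (SD, n = 5), with no overlap (log2 1.19, adjusted p = 0.0002). Adamtsl1, which has no protease domain, rose by 1.64 (adjusted p = 0.000625) against 12w+dox and by 1.93 (adjusted p = 0.000391) against 6w+dox. Adamts7 and Adamtsl3 are named after their values were seen. Adamts7 was called in both of these comparisons, at 1.08 and 1.07 (adjusted p = 0.00861 and 0.0169), but the first was lost without 12w+dox replicate 3 (0.91) or 12w-res replicate 5 (0.97), and the second without 12w-res replicate 5 (0.95), 6w+dox replicate 1 (0.81) or 6w+dox replicate 2 (1.07). Adamts12 and Adamtsl3 were called against 6w+dox only among these comparisons, at 1.76 (adjusted p = 0.000695) and 1.32 (adjusted p = 0.0159), the latter lost without 6w+dox replicate 2 (1.24). The differences between comparisons were not tested.

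Members of the Adam family took different courses. The main sheddases Adam10 and Adam17, which release many growth factors and Notch fragments, showed small differences: in 12w-res against 12w+dox the log2 values were -0.36 (adjusted p = 0.0399) and -0.17 (adjusted p = 0.229), neither past the fold threshold. Adam15, a disintegrin protease of vessels, was at 17.3, 20.1 and 23.3 FPM in 6w+dox, at 17.4, 16.8, 16.9 and 17.5 FPM in 12w+dox, and at 33.1, 40.4, 39.3, 45.5 and 40.2 FPM in 12w-res. The restored mice lay apart from all others. Its log2 fold change of 1.18 against 12w+dox had the smallest adjusted p of any member there (SE 0.12, adjusted p = 4.09e-06).

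Adam12 and Adam19, proteases of muscle, bone and neural crest development, rose on prolonged dox, and their restored mice overlapped with 12w+dox. Adam12 was at 1.42 ± 0.341, 4.38 ± 0.943 and 5.58 ± 2.60 FPM in 6w+dox, 12w+dox and 12w-res (SD, n = 3, 4 and 5), and Adam19 at 1.21 ± 0.682, 4.30 ± 1.20 and 4.81 ± 1.36 FPM. In 12w+dox against 6w+dox their log2 fold changes were 1.34 (adjusted p = 0.00671) and 1.55 (adjusted p = 0.00583), with no overlap, and in 12w-res against 12w+dox their log2 values were 0.25 (adjusted p = 0.471) and 0.13 (adjusted p = 0.744). Adam23, a neural adhesion protein without protease activity, fell by 1.33 on the log2 scale from 6w+dox to 12w+dox (18.2 ± 2.55 to 7.07 ± 2.06 FPM, adjusted p = 0.00112), and reached 11.4 ± 1.91 FPM in 12w-res (log2 0.68 against 12w+dox, adjusted p = 0.0111).

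Adam3 and Adam5, best known from sperm, lie next to each other on the minus strand of chromosome 8 with 715 bases between them (Adam3 at chr8:24677232-24726377 and Adam5 at chr8:24727093-24824369, RefSeq, GRCm38.p6), and they differed in opposite directions. In the 12w-res mice, in the same order, Adam3 was at 2.496, 6.18, 7.51, 7.73 and 8.34 FPM and Adam5 at 2.60, 1.11, 0.410, 0.354 and 0.332 FPM. The mouse lowest for Adam3 was the highest for Adam5. In 12w+dox Adam3 was at 0.872, 2.59, 0.678 and 0.559 FPM and Adam5 at 3.45, 3.09, 2.99 and 2.23 FPM. Adam3 was 4.29-fold higher in 12w-res (log2 2.10, adjusted p = 0.000414) and Adam5 2.70-fold lower (log2 -1.43, adjusted p = 0.0058), with overlap of 1 mouse in each gene. Adam1a was called lower in 12w-res than in 6w+dox at -1.25 (adjusted p = 0.0393), a call that failed without 12w-res replicate 1, 2, 4 or 5 or without 6w+dox replicate 2 or 3, the values without 1 mouse ranging from -1.73 to -0.68, and 35.3% of its exon bases are shared with other listed genes.

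Among the cathepsins, Ctsl, a cysteine protease of lysosomes that also processes prohormones, stood out by level. It was at 215, 225 and 150 FPM in 6w+dox, at 212, 211, 226 and 146 FPM in 12w+dox, and at 449, 421, 472, 477 and 397 FPM in 12w-res. The restored mice lay far above both dox groups, which overlapped. Its log2 fold change was 1.17 against 12w+dox (SE 0.15, adjusted p = 4.49e-05) and 1.19 against 6w+dox (SE 0.16, adjusted p = 9.2e-05). Ctsf took another course, at 35.4, 29.4 and 34.1 FPM in 6w+dox, 56.6, 87.5, 90.2 and 80.0 FPM in 12w+dox, and 40.8, 44.4, 34.7, 30.5 and 31.1 FPM in 12w-res. The 12w+dox mice were above all others. Ctsf was 2.33-fold higher in 12w+dox than in 6w+dox (log2 1.22, adjusted p = 0.000597) and 2.14-fold lower in 12w-res than in 12w+dox (log2 -1.10, adjusted p = 9.15e-05).

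Ctss, Ctsk and Ctsz were the other cathepsins called higher in 12w-res than in 12w+dox. Without a minimum fold, 8 of 13 Cts genes were higher at an adjusted p under 0.05 (limma). Ctsh and Ctsc were not called there. Ctsh was at 7.32 ± 0.521 FPM in 12w+dox (SD, n = 4) and 14.9 ± 2.08 FPM in 12w-res (SD, n = 5), and Ctsc at 18.1 ± 7.92 and 33.2 ± 3.97 FPM. Ctss, the cathepsin of antigen-presenting cells, was at 27.8 ± 7.91 FPM in 12w+dox (SD, n = 4) and 59.6 ± 19.8 FPM in 12w-res (SD, n = 5), a log2 fold change of 1.07 (adjusted p = 0.00199) that was 1.00 without 12w+dox replicate 3 and 0.90 without 12w-res replicate 3, both at or under the fold threshold. Ctsk, the collagen-degrading cathepsin of osteoclasts and fibroblasts, was at 2.35 ± 0.815 and 6.05 ± 2.48 FPM (log2 1.16, adjusted p = 0.00395), and stood at 0.98 without 12w-res replicate 3. Ctsz was at 42.4 ± 15.5 and 90.7 ± 21.2 FPM (log2 1.12, adjusted p = 0.00147), and at 0.94 without 12w+dox replicate 2. The most abundant cathepsins did not pass the fold threshold: Ctsb had 0.55 (adjusted p = 0.0133) and Ctsd 0.52 (adjusted p = 0.00802), and they turned to -0.11 and -0.13 when reads were scaled by totals, as Mmp14 did to -0.13. Against 6w+dox, Ctsc, which activates granule serine proteases, was higher at 10.9 ± 1.10 against 33.2 ± 3.97 FPM (log2 1.56, adjusted p = 0.000199), with Ctsk, Ctsl and Ctsh also called.

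Genes that work with these members were followed through a list of 46 partners, 42 of them tested. In 12w-res against 12w+dox 13 were higher and 1 was lower, beside 6.24% and 5.04% of all genes. Against 6w+dox the counts were 9 and 1, beside 5.81% and 5.82%. In 12w+dox against 6w+dox they were 2 and 6, beside 3.15% and 4.04%. Of 4 genes of plasminogen activation, 3 were higher in 12w-res than in 12w+dox: the activators Plat (55.5 ± 3.32 against 21.0 ± 6.20 FPM, log2 1.41, adjusted p = 9.29e-06) and Plau (log2 1.10, adjusted p = 0.000757) and the receptor Plaur (log2 1.30, adjusted p = 0.00224). Cst6, an inhibitor of Ctsl and legumain, was at 18.5 ± 7.43 FPM in 12w+dox (SD, n = 4) and 116 ± 22.01 FPM in 12w-res (SD, n = 5), a log2 fold change of 2.69 (adjusted p = 2.16e-06). Serpina3n, an extracellular serpin, was at 3.35 ± 0.838, 13.6 ± 2.13 and 47.7 ± 9.86 FPM over 6w+dox, 12w+dox and 12w-res and passed in all 3 comparisons. Hpse, which cuts heparan sulfate, rose from 4.07 ± 0.198 to 14.0 ± 6.41 FPM in 12w+dox and was at 4.21 ± 0.893 FPM in 12w-res. Pcolce, the enhancer of procollagen C-proteinase, was lower than in 6w+dox in both later groups (log2 -1.87 in 12w+dox and -1.001 in 12w-res, adjusted p = 0.00157 and 0.0207).

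The short-term experiment asked what changed in the first days after dox was removed from tumor-bearing mice. No member was called in any of the 4 comparisons, with 0 of 63 in each. The percent called over all 13958 genes tested was 0.043 for 1d -dox, 0.129 for 3d -dox and 0.193 for 5d -dox against 16w +dox, and 0.0143 for 5d -dox against 1d -dox. At an unadjusted p under 0.05 (limma), 2 members were higher and 11 lower at 1 day, beside 6.78% and 6.28% of all genes. The counts were 6 and 11 at 3 days, beside 7.95% and 8.7%, and 2 and 16 at 5 days, beside 7.2% and 6.33%. Between 5 days and 1 day they were 4 and 0, beside 3.65% and 2.67%. With DESeq2, 1 member was lower at 1 day (Mmp12) and 1 at 5 days (Adamts2), where it called 0.81% and 1% of all genes, and 0 members were called at 3 days or between 5 days and 1 day, where it called 0.745% and 0.0502%. With edgeR 0 members were called in any of the 4, where it called 0.0358%, 0.107%, 0.229% and 0.0143% of all genes. The median log2 difference of the members was -0.17 at 1 day, -0.0017 at 3 days and -0.16 at 5 days, beside -0.0018, 0.0092 and -0.00089 for all genes. Since the mice at 1 and 5 days were female and those kept on dox were male, sex and dox removal cannot be told apart at these times, whereas at 3 days both sides were male.

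Timp2 was at 49.8, 57.5 and 49.7 FPM in 16w +dox, at 47.5, 55.9, 43.4 and 42.2 FPM in 1d -dox, at 31.8, 33.0 and 23.4 FPM in 3d -dox, and at 56.1, 57.1 and 99.5 FPM in 5d -dox. The 3d -dox mice lay below all others, and the 5d -dox mice overlapped with 16w +dox. At 3 days, with males on both sides, the log2 difference was -0.83 (SE 0.19, adjusted p = 0.0724). Ctsl behaved alike, at 58.6, 68.8 and 62.9 FPM in 16w +dox, 54.0, 56.6, 45.7 and 52.3 FPM in 1d -dox, 44.0, 44.6 and 37.1 FPM in 3d -dox, and 62.8, 56.9 and 71.4 FPM in 5d -dox. Its difference of -0.59 at 3 days (SE 0.10, adjusted p = 0.0396) was the only one of a member with an adjusted p under 0.05, and it did not reach the fold threshold. The summed melanotroph markers also lay lowest at 3 days, at 24169, 28931 and 12458 FPM, against 35265 to 38063 FPM in 16w +dox, 25200 to 45752 in 1d -dox and 40237 to 57854 in 5d -dox, with 0 of 4 markers called at 3 days. Their part in the values of Timp2 and Ctsl was not tested.

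Mmp12 was at 4.42, 2.67 and 2.99 FPM in 16w +dox and 0.748, 1.40, 1.70 and 1.01 FPM in 1d -dox, with no overlap. Its log2 difference of -1.18 (SE 0.26) did not pass in limma (adjusted p = 0.102), and DESeq2 gave -1.47 (adjusted p = 0.0027). At 5 days the largest difference in the Adamts family was that of Adamts2, 2.96 ± 1.73 FPM in 16w +dox against 1.31 ± 0.248 FPM (SD, n = 3 each; log2 -0.83, adjusted p = 0.175). Mmp9 had -0.70 at 5 days (adjusted p = 0.136) and Timp3 -0.74 (adjusted p = 0.307). These are values that did not pass the test.

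The stromal markers were also lower in the female short-term groups. The summed fibroblast markers ranged from 47.0 to 60.9 FPM in 16w +dox, 19.6 to 33.1 in 1d -dox, 36.6 to 74.8 in 3d -dox and 18.2 to 34.7 in 5d -dox, with 0 of 6 markers called, and of the endothelial markers 1 of 6 was lower at 1 day and 2 of 6 at 5 days. Their part in the members' values was not tested. Between 5d -dox and 1d -dox, where all mice were female, the members' median was 0.0094 and the smallest adjusted p was 0.655, for Timp2 at 0.54 (SE 0.18).

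**Figure D5:**
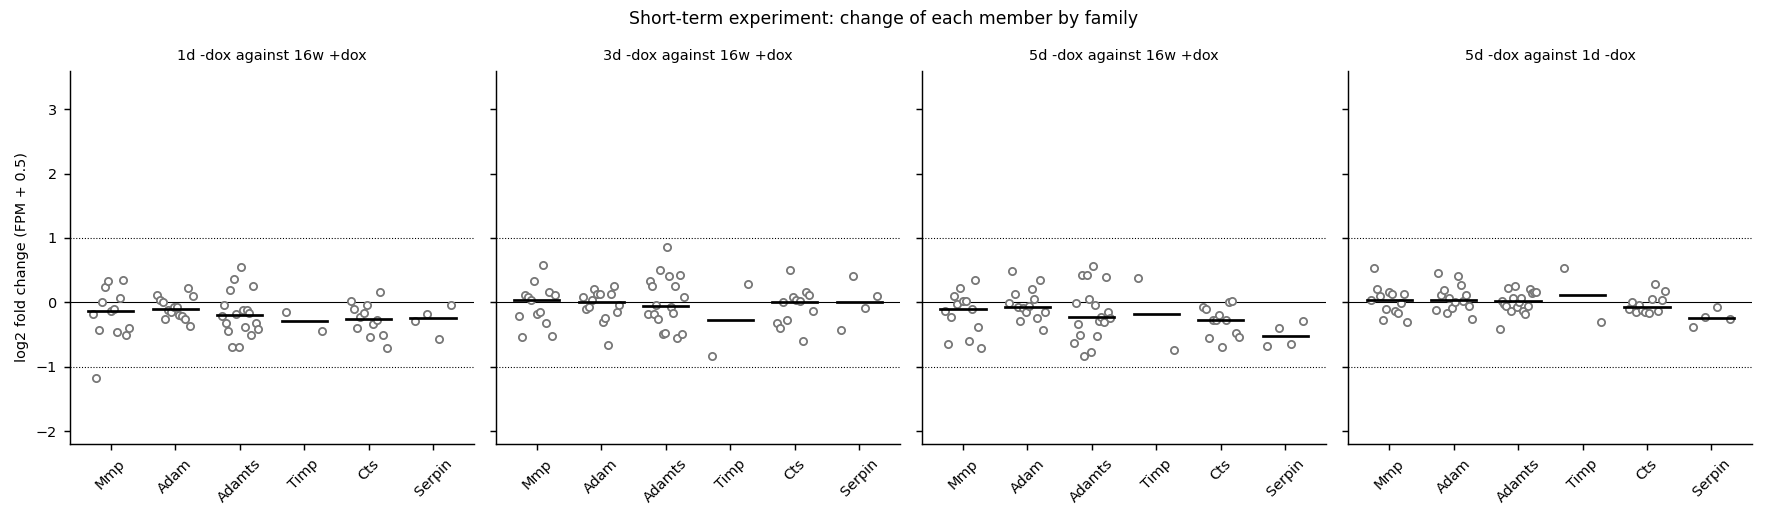
Log2 difference of each of the 63 members on the log2(FPM + 0.5) scale, by family, in the 4 short-term comparisons, on the same vertical scale as the plot of the long-term changes. No point is filled, since 0 members were called; black bars are family medians and dotted lines mark a log2 value of 1 in either direction.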

How the data were processed

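Pituitaries of single mice were sequenced as 2 experiments, the long-term one with polyA enrichment (12 mice) and the short-term one with rRNA depletion (13 mice). Alignment by the authors was to mm10 with STAR. Their stated minimum for RefSeq genes, 10 reads in over 50% of a condition's samples, was met on the recovered reads by all 15315 listed long-term genes and by 13958 of 14007 listed short-term genes. They deposited for each gene a signal, its reads scaled with DESeq2 size factors to a common library size (FPM). The counting tool and its use of strand are not given in the sources used here. All of the deposited values (100%) were whole multiples of 1 read within 0.1 read, so read numbers were recovered. Blank lines (2 in the long-term table) were left out, as were 4 short-term lines of unmapped, multimapping, unassigned and ambiguous reads, which held 68.8% to 75.0% of the reads of each short-term library.

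Members were found by a rule on symbols that used no measured value. The rule and the gene lists were set with earlier results of these data known. limma 3.58.1 (R 4.3.3) was fitted to log2(FPM + 0.5) over all groups of an experiment, with the variance trend and Benjamini-Hochberg adjustment over all genes that had 10 reads in more than 50% of a group. A fold change on this scale understates the change of low genes. A call needed an adjusted p below 0.05 and a log2 fold change beyond 1. edgeR 4.0.16 and DESeq2 1.42.0 on the recovered reads, other pseudocounts (0.1 and 1), scalings and filters, sex, a replicate block and leaving out each mouse were alternatives. On simulated data with 100 genes changed at a log2 fold of 2 and 100 at 3 for 12w-res against 12w+dox (15044 genes), limma recovered 99 and 99 and called 3 others. The same test for 3d -dox against 16w +dox (13711 genes) recovered 100 and 99 and called 2 others. In both, the changed genes were drawn only from those averaging over 100 reads, with as many raised as lowered. The recovery therefore does not cover members with fewer reads or with smaller fold changes. The labels do not say whether mice shared litters or cages. The limma p-values treat each mouse as independent. Their variances are pooled over the groups and drawn toward a trend over all genes.

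Named were the Timp genes, a set of members fixed by name, every member called (up to 15 in a direction by size) and the member with the largest difference in each family. Counting intervals and the floor of 3 reads cover counting error only. Transcript lengths, overlaps and promoters come from GENCODE and RefSeq annotation of GRCm38. A planned split of the Adam proteins by their catalytic motif was not made, since no protein sequences were used here. A result on a named member is not reported here. Replicates of a group all differed by more than sampling noise.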

Additional observations from a re-analysis of the deposited data

Results flagged for a closer look

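Of 98 groups of 4 or more mice tested for members that the text names, 8 held 1 mouse whose gap to the nearest other exceeded Dixon's 95% critical value, and chance alone marks about 1 group in 20. In 12w+dox, replicate 4 was high for Adamts4 (1.93 FPM, others 0.616 to 0.698), Mmp19 (1.03 FPM, others 0.408 to 0.493) and Mmp2 (6.34 FPM, others 2.19 to 2.86). In the same group, replicate 2 was high for Adam3 (2.59 FPM, others 0.559 to 0.872) and replicate 1 for Ctss (39.6 FPM, others 23.3 to 24.2). Among the restored mice, replicate 3 of 12w-res stood out for Mmp12 (64.8 FPM, others 8.08 to 17.004), and this mouse also had the highest summed macrophage markers of the long-term mice (256 FPM). In 1d -dox, replicate 4 was high for Adam11, a neural adhesion protein (1.45 FPM, others 0.773 to 0.886), and replicate 3 was low for Ctsd (46.02 FPM, others 52.2 to 53.3). What set these mice apart was not tested.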

How the results depend on the processing

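The counts of called members (7 higher and 2 lower in 12w+dox against 6w+dox, 21 and 2 in 12w-res against 12w+dox, 23 and 2 in 12w-res against 6w+dox) moved by over 1.5 times under some alternatives. Scaling by totals of reads gave 1 lower in the first comparison and 7 higher and 11 lower in the second, where it turned Ctsb to -0.11, Ctsd to -0.13 and Mmp14 to -0.13. Of the members followed singly in the second comparison, 14 lost their call under this scaling, 12 kept their status, 3 changed sign and 1 gained a call. DESeq2 gave 11 higher in the first, 1 lower in 1d -dox and 1 lower in 5d -dox. Without a minimum fold the counts were 11 higher and 5 lower, 33 and 9, and 5 lower in the last, with 1 lower in 3d -dox. A filter of 10 reads in every mouse, which tests fewer genes, gave 1 lower in the second and 13 higher and 0 lower in the last. In the last comparison, fitting only the groups compared, sex as a covariate and female mice only each gave 1 lower. Leaving out each mouse gave 6 to 10 higher and 1 to 4 lower in the first, 15 to 26 and 2 to 3 in the second, 21 to 26 and 1 to 3 in the last, and 0 in the short-term comparisons. Apart from the scaling and the fewer genes or mice, the cause of these shifts was not tested.

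Replicate numbers did not pair the mice, since the correlations of same-numbered mice ran from -0.21 to 0.24. With a replicate block the counts were 7 higher and 3 lower, 19 and 3, and 21 and 2, and 0 in the short-term comparisons. Depth limits low members most: Mmp9 had 0 reads in 1 mouse of 6w+dox, and Adamts14 had 2 reads in that whole group.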
